A study of Mus musculus with 12 samples.

Results

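Transcripts of the caveolin and cavin genes were followed in fat cells and in the other cells of a visceral and a subcutaneous fat depot of the mouse. The members were taken by name: a feature belonged to the set when its gene symbol in the deposited tables was Cav1, Cav2, Cav3, Ptrf, Sdpr or Prkcdbp. All 6 symbols were found, each at a single locus, among 24881 features used, and 5 of the 6 passed the filter on low values, Cav3 being the exception. The cavins stood under their older symbols Ptrf (cavin-1, now Cavin1), Sdpr (cavin-2, now Cavin2) and Prkcdbp (cavin-3, now Cavin3).

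The mice were males of the C57BL/6J strain, 18 weeks old, untreated and fed a normal chow diet (NCD). A visceral depot, the epididymal adipose tissue (EAT), and a subcutaneous one, the inguinal adipose tissue (IAT), were digested with collagenase I. This gave adipocytes and stromal vascular cells (SVCs), a fraction of fibroblasts, vascular cells and immune cells. The 4 groups were EAT adipocyte, IAT adipocyte, EAT SVC and IAT SVC, with 3 libraries each, and all 4 shared strain, sex, age and diet. Whether a library stands for 1 mouse or a pool is not in the labels, so the p-values rest on the spread between libraries, which may be technical.

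Caveolae are flask-shaped pits of the plasma membrane, and they are very dense on adipocytes, endothelial cells and muscle cells. Caveolins insert into the inner leaflet and form the scaffold of the pit, while cavins assemble into a coat on its cytosolic side, and loss of caveolin-1 or cavin-1 removes caveolae from fat cells. In fat, caveolae are known for membrane stretch buffering, fatty acid uptake and insulin signalling, and people or mice that lack caveolin-1 or cavin-1 have little body fat.

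The genes lie on 4 chromosomes of the mouse build GRCm38 (mm10), and the deposited loci were the same as those of RefSeq for that build. Cav2 (chr6:17281185-17289130) ends 17204 bases before the start of Cav1 (chr6:17306335-17341328), on the same strand. Cav3 stands elsewhere on that chromosome (chr6:112459505-112472872). Ptrf lies at chr11:100956736-100970617, Sdpr at chr1:51289126-51302960 and Prkcdbp at chr7:105480616-105482197.

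Upstream sequence was read from RefSeq's promoter table (GRCm38.p6) as the 250 bases that end just before the start of the deposited locus, and 5 of the 6 members had an entry. The windows of Cav1 and Cav2, the neighbouring genes whose transcripts ran most closely together, and of Sdpr, the tested member with the smallest differences between fractions, are printed 5′ to 3′ on the gene's strand. Capitals mark 3 short motifs searched on both strands: the GC box core GGGCGG, the CCAAT box and the TATA box form TATAAA. The Cav1 window (chr6:17306085-17306334, plus strand), the Cav2 window (chr6:17280935-17281184, plus strand) and the Sdpr window (chr1:51288876-51289125, plus strand) read as follows.
Cav1: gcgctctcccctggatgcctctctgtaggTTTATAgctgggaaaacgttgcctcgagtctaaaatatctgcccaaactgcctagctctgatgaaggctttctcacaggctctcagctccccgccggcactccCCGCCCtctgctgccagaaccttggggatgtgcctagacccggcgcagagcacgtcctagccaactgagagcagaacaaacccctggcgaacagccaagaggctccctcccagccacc
Cav2: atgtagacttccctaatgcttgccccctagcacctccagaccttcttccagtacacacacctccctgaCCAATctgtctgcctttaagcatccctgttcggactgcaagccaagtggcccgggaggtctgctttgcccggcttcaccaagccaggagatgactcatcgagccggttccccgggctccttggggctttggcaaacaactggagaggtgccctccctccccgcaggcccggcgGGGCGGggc
Sdpr: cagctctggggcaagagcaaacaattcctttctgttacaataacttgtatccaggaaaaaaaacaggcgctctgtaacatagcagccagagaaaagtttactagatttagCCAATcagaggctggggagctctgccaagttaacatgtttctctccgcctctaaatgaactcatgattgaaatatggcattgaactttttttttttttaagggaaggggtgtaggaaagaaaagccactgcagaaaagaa

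In Cav1 the GC box core stood on the opposite strand, 118 to 113 bases before the start, and TATAAA stood on the opposite strand at 221 to 216. In Cav2 the GC box core stood 9 to 4 bases and CCAAT 182 to 178 bases before the start. Sdpr held CCAAT at 140 to 136 and neither of the other motifs. The table holds a second, downstream start of Cav1 (17307640), and its window held none of the 3 motifs. GGGCGG was present in 32.7%, CCAAT in 33.8% and TATAAA in 12.4% of the 32851 windows of the table, so these are common letters and a match is a description only. GC content was 59.6% in the Cav1 window, 62.0% in that of Cav2 and 40.4% in that of Sdpr, against a median of 52.4% over all windows.

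Values are in FPKM, fragments scaled by exon length and by the mapped fragments of the library, a per-length scale on which genes can be set beside each other. The labelled fractions carried their markers. The 10 adipocyte markers, summed, stood at 32900 to 44200 FPKM in adipocyte libraries and at 4480 to 7320 FPKM in SVC libraries. In SVCs that sum was mostly Fabp4 (means of 4730 FPKM in EAT and 6630 in IAT). Adipoq averaged 7.18 and 21.7 FPKM there, against 4150 and 3460 FPKM in adipocytes. The 12 endothelial markers summed to 201 to 297 FPKM in adipocyte libraries and to 1070 to 1420 FPKM in SVC libraries, and the 10 fibroblast and progenitor markers to 234 to 296 and 4810 to 5570 FPKM. Each adipocyte library therefore holds some signal of vascular and stromal markers, and each SVC library some of adipocyte markers. In such bulk libraries fewer cells of a type and less RNA per cell cannot be told apart. EAT adipocyte replicate 1 stood apart from its group (Pearson r of 0.982 and 0.985 across features, against 0.9945 between the other two), with the highest Ptrf and Prkcdbp and the lowest Cav1 and Cav2 of that group.

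Cav1, the main caveolin of fat and endothelium, was the most abundant member in each of the 12 libraries. It stood at 1396, 1504 and 1484 FPKM in the EAT adipocyte libraries and at 938.9, 937.8 and 945.3 FPKM in the IAT adipocyte libraries. In SVCs it stood at 309.4, 278.1 and 320.8 FPKM in EAT and at 304.4, 288.7 and 306.9 FPKM in IAT. The EAT adipocyte libraries were the highest, the IAT adipocyte libraries lay below them with no overlap, and the SVC groups lay lowest and overlapped each other. Among the 24881 features Cav1 ranked between 22 and 37 from the top in EAT adipocytes, 54 to 55 in IAT adipocytes and 212 to 263 in SVCs.

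Cav2 encodes the caveolin that joins caveolin-1 in mixed oligomers. It was measured at 257.4, 280.6 and 265.3 FPKM in EAT adipocytes and at 202.1, 197.7 and 200.3 FPKM in IAT adipocytes. In SVCs it was measured at 53.17, 41.89 and 55.98 FPKM in EAT and at 58.16, 56.44 and 64.63 FPKM in IAT. The adipocyte groups were separated as for Cav1, and in SVCs the order of the depots was turned, with each IAT library just above each EAT library.

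Cav3, the caveolin of skeletal and heart muscle, was listed at 0 in all 6 adipocyte libraries. A count of 0 allows up to 3 fragments, which would be 0.0983 to 0.13 FPKM in those libraries. In EAT SVCs it stood at 0.02752, 0.07705 and 0 FPKM, an estimated 1, 3 and 0 fragments, and in IAT SVCs at 0.3187, 0.04331 and 0.1003 FPKM, an estimated 9, 1 and 3 fragments. These estimates rest on the deposited confidence bounds, from which 57.5% to 61.5% of the low values of a library were whole fragments to within 0.02, and they cover counting error only. IAT SVC replicate 1 held the highest value, the other libraries lay at or under 3 fragments, and no ratio of means is given.

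Ptrf encodes cavin-1, which is required for caveolae to form. Its values were 590.5, 485.7 and 510.8 FPKM in EAT adipocytes and 392.2, 359.7 and 371.0 FPKM in IAT adipocytes. In SVCs they were 231.4, 248.4 and 251.7 FPKM in EAT and 231.2, 213.3 and 208.4 FPKM in IAT. The EAT adipocyte libraries again stood highest, and the lowest EAT SVC library lay level with the highest IAT SVC library.

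Sdpr encodes cavin-2, which helps to shape the membrane of the pit. It stood at 175.7, 194.0 and 170.8 FPKM in EAT adipocytes and at 153.7, 140.7 and 145.8 FPKM in IAT adipocytes. The SVC libraries gave 107.9, 95.41 and 111.1 FPKM in EAT and 100.6, 93.5 and 103.9 FPKM in IAT. The spread from the highest to the lowest group was narrower than for the other tested members, and the SVC groups overlapped.

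Prkcdbp encodes cavin-3, a further coat subunit that binds protein kinase C delta. It was measured at 456.8, 296.3 and 351.5 FPKM in EAT adipocytes and at 258.4, 208.2 and 218.6 FPKM in IAT adipocytes. In SVCs it was measured at 91.38, 111.4 and 90.83 FPKM in EAT and at 104.8, 109.2 and 95.2 FPKM in IAT. EAT adipocyte replicate 1 was the highest library and the SVC groups overlapped.

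**Figure D1:**
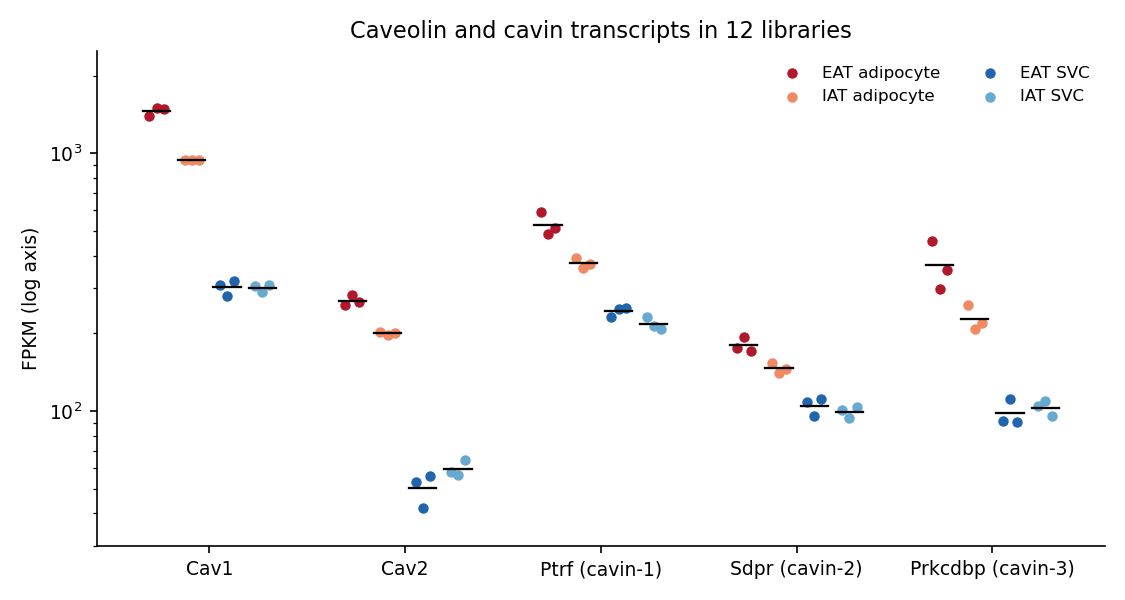
FPKM of the 5 detected members on a log axis, with a point for each of the 12 libraries, a colour for each of the 4 groups and a black bar at each group mean. Cav1 lay highest in each group (1396 to 1504 FPKM in EAT adipocytes), the EAT adipocyte points lay above the IAT adipocyte points for all 5 genes, and the SVC points lay lowest.

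The confidence bounds deposited with the values were narrow for the abundant members, at most 3.97% of the value for Cav1, 5.39% for Cav2, 1.64% for Ptrf, 2.54% for Sdpr and 4.71% for Prkcdbp. Those of Cav1 did not narrow with its level (3.91% of 1396 FPKM in EAT adipocyte replicate 1, 3.62% of 278.1 FPKM in EAT SVC replicate 2). For the 3 cavins the SD between libraries was wider than these bounds in each group. For Cav1 in IAT adipocytes it was narrower (SD of 4.04 FPKM, bounds of 912.8 to 977.7 FPKM in replicate 3). On the same per-length scale the level fell in the order Cav1, Ptrf, Prkcdbp, Cav2, Sdpr by group mean in adipocytes of both depots. No neighbours in that order overlapped within an adipocyte group, and the closest were Prkcdbp and Cav2 in IAT (208.2 to 258.4 against 197.7 to 202.1 FPKM). In SVCs Cav1 and Ptrf were again the highest, Cav2 was the lowest, and Sdpr and Prkcdbp between them overlapped in both depots (95.41 to 111.1 against 90.83 to 111.4 FPKM in EAT).

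The first comparison asked how adipocytes of the 2 depots differ. In IAT adipocytes all 5 tested members were lower than in EAT adipocytes, the caveolins to 0.644 (Cav1) and 0.747 (Cav2) of the EAT mean, and the cavins to 0.708 (Ptrf), 0.814 (Sdpr) and 0.62 (Prkcdbp). Mean Cav1 was 940.6 ± 4.04 FPKM (SD, n = 3) against 1461 ± 57.0, mean Ptrf 374.3 ± 16.5 against 529.0 ± 54.7, and mean Prkcdbp 228.4 ± 26.5 against 368.2 ± 81.6. For each of the 5 genes the highest IAT library lay below the lowest EAT library. Differences were tested with limma on log2(FPKM + 1) across 13175 features, with Benjamini-Hochberg adjustment, and called at an adjusted p under 0.05.

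Cav1 fell by 0.63 ± 0.0859 (log2 difference ± SE, adjusted p = 0.000105). Cav2 fell by 0.42 ± 0.10 (adjusted p = 0.00614). Among the cavins Ptrf fell by 0.49 ± 0.091 (adjusted p = 0.00115), Prkcdbp by 0.67 ± 0.146 (adjusted p = 0.0035) and Sdpr by 0.29 ± 0.0832 (adjusted p = 0.0154). The 5 of 5 called lower stand against 27.3% of all tested features called lower (10.3% higher, 37.6% in either direction), and the 5 of 5 without overlap against 34.8% lying lower without overlap and 13.5% lying higher. The median log2 difference was -0.49 over the 5 members and -0.10 over all tested features.

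The size of these differences moved with the scaling of the libraries. Under median-of-ratios scaling, which brought the median of all features from -0.10 to 0.0017 and the split of calls from 1363 higher and 3597 lower to 2124 and 2197, the calls for Cav2 (-0.28, adjusted p = 0.0509) and Sdpr (-0.15, adjusted p = 0.198) ended while Cav1, Ptrf and Prkcdbp stayed lower. Sdpr also missed the threshold without EAT adipocyte replicate 2 (-0.24, adjusted p = 0.0583) or without IAT adipocyte replicate 2 (-0.26, adjusted p = 0.062), and Ptrf fell by 0.77 under quantile normalization. Without EAT adipocyte replicate 1, the library that stood apart, all 5 were still called lower, with differences of -0.67 for Cav1, -0.45 for Cav2, -0.41 for Ptrf, -0.31 for Sdpr and -0.50 for Prkcdbp. Markers of other cells moved with the depot as well: 8 of 9 macrophage markers were lower in IAT adipocytes (summed 95.8 to 125 against 453 to 581 FPKM), 7 of 7 mesothelial markers were lower (0.479 to 0.516 against 17.3 to 19.9 FPKM, with Upk1b and Bnc1 at 0 in IAT), and 6 of 12 endothelial markers were higher with none lower (219 to 297 against 201 to 231 FPKM). Schwann cell markers were higher for 6 of 6 genes, and of 10 fibroblast and progenitor markers 5 were higher and 1 lower. Of 4 tested lymphatic endothelial markers 2 were lower and 0 higher. All 6 summed to 2.67 to 2.98 FPKM in IAT against 11.1 to 12.8 FPKM in EAT, where Prox1 was at 0. Of 10 lymphocyte markers 4 were higher and 2 lower. Of 10 adipocyte markers 4 were called lower and 3 higher. Those lower were Lep at 0.487, Cidec at 0.676, Retn at 0.717 and Adipoq at 0.834 of the EAT mean. Their part in the result was not tested.

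The same depot comparison in SVCs gave no call among the 5 members. Mean Cav1 was 300.0 ± 9.86 FPKM (SD, n = 3) in IAT against 302.8 ± 22.1 in EAT, a log2 difference of -0.01 ± 0.0859 (limma, adjusted p = 0.938). Cav2 was 59.74 ± 4.32 against 50.34 ± 7.46 FPKM, 0.25 ± 0.10 on the log2 scale (adjusted p = 0.0649), with IAT above EAT in each library. Ptrf was 217.6 ± 12.0 against 243.8 ± 10.9 FPKM (-0.16 ± 0.091, adjusted p = 0.179), Sdpr 99.34 ± 5.33 against 104.8 ± 8.29 FPKM (-0.07 ± 0.0832, adjusted p = 0.521) and Prkcdbp 103.0 ± 7.15 against 97.85 ± 11.7 FPKM (0.08 ± 0.146, adjusted p = 0.719).

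The 0 of 5 called stand against 40.2% of all features called (14.0% higher, 26.2% lower). Groups did not overlap for Cav2 (higher in IAT, as for 20.1% of features) and, narrowly, for Ptrf (lower, as for 35.0%). Cav2 passed the threshold under 3 other normalizations (median-of-ratios 0.35, adjusted p = 0.0141; quantile 0.37, adjusted p = 0.0471; removal of a gene length trend 0.29, adjusted p = 0.0287), without EAT SVC replicate 3 (0.33, adjusted p = 0.0309) and without EAT adipocyte replicate 1 (0.25, adjusted p = 0.0396), while without EAT SVC replicate 2, the lowest library, it was 0.13 (adjusted p = 0.249). Ptrf passed it after rescaling to TPM (-0.27, adjusted p = 0.00389) and was -0.06 under median-of-ratios scaling. The sign of the small Cav1, Sdpr and Prkcdbp differences turned with the scaling, Cav1 from -0.12 under TPM to 0.09 under median-of-ratios scaling, so no direction is given for them. Markers of endothelial cells, which are rich in caveolae, were higher in IAT for 6 of 12 genes (summed 1160 to 1420 against 1070 to 1110 FPKM), and 7 of 9 macrophage markers were lower (2170 to 2390 against 4110 to 4310 FPKM). Of 4 tested lymphatic endothelial markers 3 were lower and 0 higher (all 6 summed to 66.2 to 68.5 against 148 to 165 FPKM). Of 10 lymphocyte markers 9 were higher (368 to 553 against 116 to 122 FPKM). Adipocyte markers were higher in IAT SVCs for 8 of 10 genes, such as Adipoq (21.68 ± 1.27 against 7.177 ± 0.648 FPKM). Their sum (6480 to 7320 against 4480 to 5250 FPKM) was mostly Fabp4, which was not called (limma, adjusted p = 0.0654). Of mesothelial markers 7 of 7 were lower (1.51 to 1.9 against 397 to 463 FPKM, with Wt1 and Bnc1 at 0 in IAT). The part of these markers was not tested.

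Cav3 was too low for the filter and was not called. With no filter its log2 difference between IAT and EAT SVCs was 0.15 ± 0.0685 (limma, adjusted p = 0.119). Its highest library value was in IAT SVCs, where skeletal muscle markers were higher too. Of 9 tested markers 8 were higher there, beside 14.0% of all features, and Actn3 was lower (2.27 against 4.82 FPKM). Ryr1, which was not tested, also had a lower mean there (0.314 against 0.793 FPKM). The sum of all 12 stood at 97.8 to 118 FPKM against 16.3 to 18.6 FPKM in EAT SVCs, where Pvalb was at 0. Ckm, the muscle creatine kinase, averaged 12.11 ± 0.648 against 0.06335 ± 0.0565 FPKM. Across IAT SVC replicates 1 to 3 Ckm stood at 12.9, 11.8 and 11.7 FPKM, and Cav3 at 0.3187, 0.04331 and 0.1003 FPKM. Cav3 in EAT SVC replicate 2 (0.07705 FPKM) lay above IAT SVC replicate 2. The 5 cardiac muscle markers went the other way, with sums of 2.37 to 2.87 FPKM in IAT SVCs and 4.43 to 6.8 FPKM in EAT SVCs. Of 2 tested cardiac markers 0 were called higher and 1 lower in IAT SVCs, beside 14.0% and 26.2% of all features. The part of these markers in the Cav3 values was not tested.

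Whether the depot difference itself differed between fractions was tested as an interaction, the depot difference in adipocytes minus that in SVCs. It was below 0 for all 5 members and called for 3 of 5: Cav1 (-0.62 ± 0.122, limma, adjusted p = 0.00181), Cav2 (-0.67 ± 0.142, adjusted p = 0.00322) and Prkcdbp (-0.75 ± 0.207, adjusted p = 0.0152). Ptrf (-0.33 ± 0.129, adjusted p = 0.0692) and Sdpr (-0.22 ± 0.118, adjusted p = 0.183) did not pass. Over all features 17.8% were called lower, 14.7% higher and 32.5% in either direction. The Cav1, Cav2 and Prkcdbp calls held in all 22 alternatives of this contrast, with Prkcdbp at -0.58 (adjusted p = 0.0108) without EAT adipocyte replicate 1. Marker lists moved in this contrast as well: 6 of 10 adipocyte markers were called lower and 1 higher (median -0.64, against -0.62 over the members), as were 8 of 9 macrophage, 8 of 9 skeletal muscle, 10 of 10 lymphocyte and 6 of 6 Schwann cell markers lower, and 7 of 7 mesothelial markers higher. Their part in the result was not tested. Ptrf passed under quantile normalization (-0.69, adjusted p = 8.18e-05), TPM (-0.26, adjusted p = 0.043), a fit without the variance trend (-0.33, adjusted p = 0.0464) and without EAT adipocyte replicate 2 (-0.39, adjusted p = 0.0373).

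**Figure D2:**
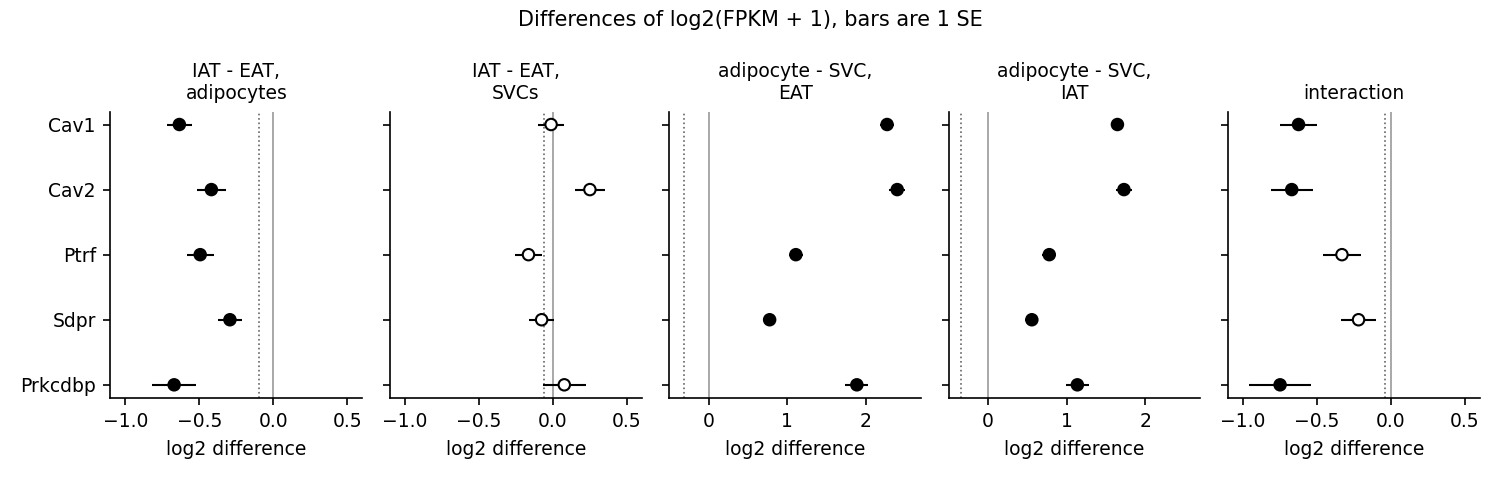
Log2 differences of log2(FPKM + 1) for the 5 tested members in the 5 contrasts, with bars of 1 SE, filled points for calls at an adjusted p under 0.05 and a dotted line at the median of all tested features. All 5 points are filled and left of 0 for the depot contrast in adipocytes (-0.67 to -0.29), none is filled in SVCs (-0.16 to 0.25), and all 5 are filled and right of 0 in both fraction contrasts.

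The next comparison set adipocytes against SVCs within a depot. All 5 tested members were higher in adipocytes in both depots, with larger ratios for the caveolins than for the cavins. In EAT the ratio of means was 4.83 for Cav1 and 5.32 for Cav2, against 3.76 for Prkcdbp, 2.17 for Ptrf and 1.72 for Sdpr. In IAT it was 3.14 for Cav1 and 3.35 for Cav2, against 2.22 for Prkcdbp, 1.72 for Ptrf and 1.48 for Sdpr. The order of the ratios was thus Cav2, Cav1, Prkcdbp, Ptrf and Sdpr in each depot. The adipocyte and SVC libraries did not overlap for any of the 5 genes in either depot.

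On the log2 scale Cav1 was higher by 2.27 ± 0.0859 in EAT (limma, adjusted p = 4.96e-11) and by 1.65 ± 0.0859 in IAT (adjusted p = 1.06e-09). Cav2 was higher by 2.40 ± 0.10 (adjusted p = 1.25e-10) and 1.73 ± 0.10 (adjusted p = 3.15e-09). For the cavins the values in EAT and IAT were 1.11 and 0.78 for Ptrf (adjusted p = 1.03e-07 and 3.52e-06), 0.78 and 0.56 for Sdpr (adjusted p = 1.51e-06 and 3.54e-05), and 1.88 and 1.14 for Prkcdbp (adjusted p = 5.9e-08 and 9.03e-06).

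In EAT 31.1% of all features were called higher in adipocytes and 52.7% lower (83.8% in either direction), and 30.8% lay higher and 52.3% lower without overlap. In IAT 29.8% were called higher and 53.9% lower (83.7% in either direction), with 31.6% higher and 56.7% lower without overlap. The median of all features was -0.31 in EAT and -0.34 in IAT, against 1.88 and 1.14 over the 5 members. Median-of-ratios scaling brought that median near 0 (0.0044 and -0.0033), moved the split of calls from 4093 higher and 6948 lower to 5503 and 5473 in EAT and from 3921 and 7107 to 5471 and 5463 in IAT, and raised the members' differences, Ptrf to 1.21 and Sdpr to 0.99 in IAT. The 5 members were called higher in both depots under all 23 alternatives.

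Adipocyte markers were higher in adipocyte libraries for 10 of 10 genes in each depot, while 12 of 12 endothelial, 10 of 10 fibroblast and progenitor and 9 of 9 macrophage markers were lower. Of 11 tested pericyte and smooth muscle markers 10 were lower in each depot, with sums of 59.4 to 84.4 FPKM in adipocyte libraries and 396 to 538 FPKM in SVC libraries. Endothelial and smooth muscle cells carry caveolae too, and the share of the SVC values of Cav1, Cav2 and the cavins that comes from them was not tested.

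Ratios between members within a library do not change when a whole library is rescaled, and they are given as a description. Cav2 per Cav1 was 0.184, 0.187 and 0.179 in EAT adipocytes and 0.215, 0.211 and 0.212 in IAT adipocytes. In SVCs it was 0.172, 0.151 and 0.175 in EAT and 0.191, 0.195 and 0.211 in IAT. The IAT libraries lay above the EAT libraries in both fractions with no overlap, and the whole span of the 12 libraries was 0.151 to 0.215. Ptrf per Cav1 separated the fractions instead, at 0.323 to 0.423 in adipocytes of both depots and 0.679 to 0.893 in SVCs.

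Within the coat, Prkcdbp per Ptrf stood at 0.774, 0.61 and 0.688 in EAT adipocytes and at 0.659, 0.579 and 0.589 in IAT adipocytes. In SVCs it stood at 0.395, 0.448 and 0.361 in EAT and at 0.453, 0.512 and 0.457 in IAT. Adipocyte libraries therefore lay above SVC libraries with no overlap, and the depots overlapped in adipocytes. Sdpr per Ptrf was lower in adipocytes by group mean (0.344 in EAT and 0.392 in IAT) than in SVCs (0.431 and 0.457), with EAT adipocytes running from 0.298 to 0.399 and EAT SVCs from 0.384 to 0.466, so that these groups overlapped.

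**Figure D3:**
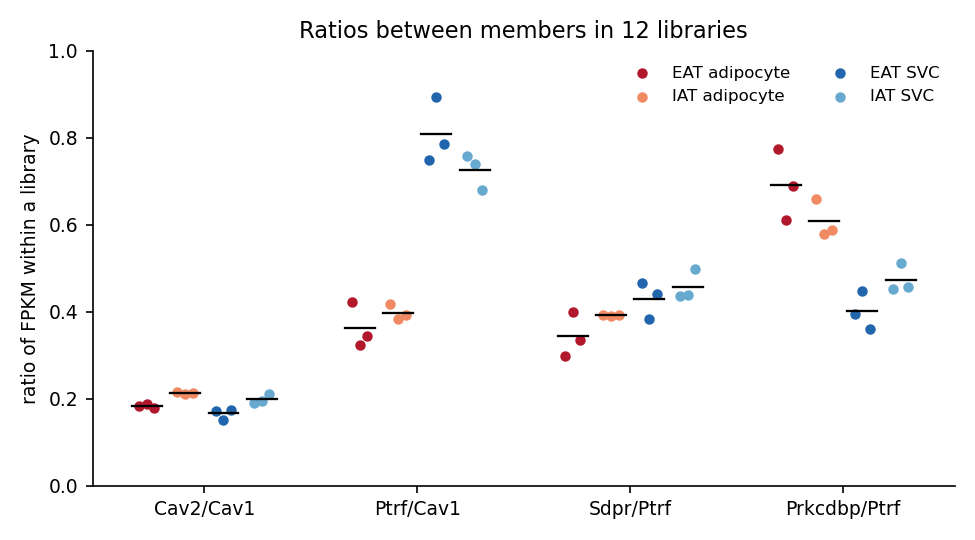
Ratios of FPKM within each of the 12 libraries, with a point for each library, a colour for each group and a black bar at the group mean. Cav2 per Cav1 lay at 0.151 to 0.215 throughout, Ptrf per Cav1 was lower in adipocytes (0.323 to 0.423) than in SVCs (0.679 to 0.893), and Prkcdbp per Ptrf was higher in adipocytes.

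Across the 12 libraries Cav1 and Cav2 followed each other most closely (Pearson r = 0.9913 of log2(FPKM + 1)), and Sdpr and Prkcdbp least (r = 0.932). Over the 6 adipocyte libraries alone r was 0.9943 for Cav1 with Cav2, 0.9793 for Ptrf with Prkcdbp and 0.728 for Sdpr with Prkcdbp. These points share the split into fractions and depots, so r describes mostly that split. By the same measure the features most like each member were sought among 7988 with a mean of at least 5 FPKM.

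Closest to Cav1 were Eepd1 (r = 0.9988), with mean levels of 251 FPKM in EAT adipocytes, 117 in IAT adipocytes and 10.6 in each SVC group, Npr3, the natriuretic peptide clearance receptor (r = 0.9981), and the noncoding RNA Snhg11 (r = 0.9981). For Cav2 they were Znrf2 (r = 0.9951), Ptcd3 (r = 0.9943) and Irs3 (r = 0.9939), and for Ptrf they were Pcbd1 (r = 0.9937), Cd320 (r = 0.9934) and Pla2g12a (r = 0.9915). Sdpr was followed most closely by Cd36, the fatty acid transporter (r = 0.9912), and Mmgt1 was also among its closest features (r = 0.9853). Prkcdbp was followed by the alpha-tubulin gene Tuba1b (r = 0.9968), by Gamt (r = 0.9941) and by Tuba1a (r = 0.9916), of which Tuba1b and Tuba1a are near-identical copies whose reads the counting could split.

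A list of 13 partner genes of caveolae was examined, all of which passed the filter. It held genes for proteins that meet caveolae at the neck or shape nearby membrane, and also others such as Flna, Src and Fyn. In IAT against EAT adipocytes 7 of 13 were called lower and none higher, beside 27.3% lower and 10.3% higher over all features, with medians of -0.30 and -0.10. In SVCs 5 were lower and 2 higher, beside 26.2% and 14.0% (medians -0.03 and -0.06). Adipocytes held 4 of 13 higher and 9 lower than SVCs in EAT, close to the 31.1% and 52.7% of all features (medians -0.38 and -0.31), and 3 higher and 9 lower in IAT, beside 29.8% and 53.9% (medians -0.58 and -0.34). With median-of-ratios scaling the fraction contrast called 5 partners higher and 6 lower for EAT, beside 5503 and 5473 of all 13175 features. For IAT it called 4 higher and 6 lower, beside 5471 and 5463. The depot contrast then called 0 higher and 5 lower in adipocytes, beside 2124 and 2197. In SVCs it called 4 higher and 5 lower, beside 2466 and 2547.

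Ehd2, the ATPase that sits at the caveola neck, was the most abundant of the 13 partners in adipocytes. It stood at 292, 379 and 378 FPKM in EAT adipocytes, at 269, 276 and 292 in IAT adipocytes, at 110, 113 and 100 in EAT SVCs and at 104, 92 and 103 in IAT SVCs. It was higher in adipocytes by 1.68 ± 0.106 in EAT (limma, adjusted p = 6.97e-09) and by 1.48 ± 0.106 in IAT (adjusted p = 2.61e-08), and lower in IAT than in EAT adipocytes (-0.31 ± 0.106, adjusted p = 0.0341), though there EAT adipocyte replicate 1 lay level with the highest IAT library. That depot call held in 13 of 23 alternatives and ended, among others, under median-of-ratios scaling (-0.17, adjusted p = 0.204) and without any 1 of EAT adipocyte replicates 2 and 3 and IAT adipocyte replicates 1, 2 and 3. In SVCs the depot difference was -0.11 (adjusted p = 0.442).

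The other EHD genes, of the same ATPase family, did not share that pattern. Ehd1 averaged 61.38 ± 2.95 FPKM in EAT adipocytes and 71.34 ± 5.81 in EAT SVCs, and was lower in IAT in SVCs (-0.57, adjusted p = 4.37e-05, limma) and in adipocytes (-0.30, adjusted p = 0.00738), the latter not under median-of-ratios (-0.16, adjusted p = 0.132) or quantile scaling (-0.23, adjusted p = 0.0597). Its fraction difference in EAT (-0.21, limma, adjusted p = 0.0172) turned sign under median-of-ratios scaling (0.17, adjusted p = 0.0463). Ehd4 was an SVC transcript, at 57.17 ± 1.1 FPKM in EAT SVCs and 66.65 ± 6.48 in IAT SVCs against 8.424 ± 0.815 and 5.508 ± 0.617 in adipocytes. Ehd3 had opposite depot differences in the fractions: it averaged 15.27 ± 4.09 FPKM in EAT adipocytes and 4.816 ± 0.553 in IAT adipocytes (-1.46 ± 0.152, adjusted p = 1.16e-05), but 2.966 ± 0.174 in EAT SVCs and 8.619 ± 0.423 in IAT SVCs (1.28 ± 0.152, adjusted p = 2.32e-05), with an interaction of -2.73 ± 0.215 (adjusted p = 1.04e-06).

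Among the pacsins, which bend membrane, Pacsin3 had the directions of Cav1. It averaged 21.23 ± 2.35 FPKM in EAT adipocytes and 13.14 ± 1.03 in IAT adipocytes (-0.65 ± 0.0993, limma, adjusted p = 0.000278), and 5.638 ± 0.733 and 5.697 ± 0.287 FPKM in EAT and IAT SVCs (0.02, adjusted p = 0.913), with an interaction of -0.67 ± 0.14 (adjusted p = 0.00302). Pacsin2, the widely expressed form, was lower in adipocytes than in SVCs in both depots (19.62 against 38.37 FPKM in EAT and 18.34 against 26.47 in IAT). Dnm2, the dynamin that cuts vesicles from the membrane, was also lower in adipocytes (28.45 against 44.45 FPKM in EAT, 28.77 against 43.54 in IAT), with a depot difference in adipocytes of 0.04 (adjusted p = 0.846). Under median-of-ratios scaling the fraction calls ended for Dnm2 in EAT (-0.27, adjusted p = 0.0582) and IAT (-0.16, adjusted p = 0.225) and for Pacsin2 in IAT (-0.09, adjusted p = 0.301), and both IAT calls also ended with the gene length trend removed.

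**Figure D4:**
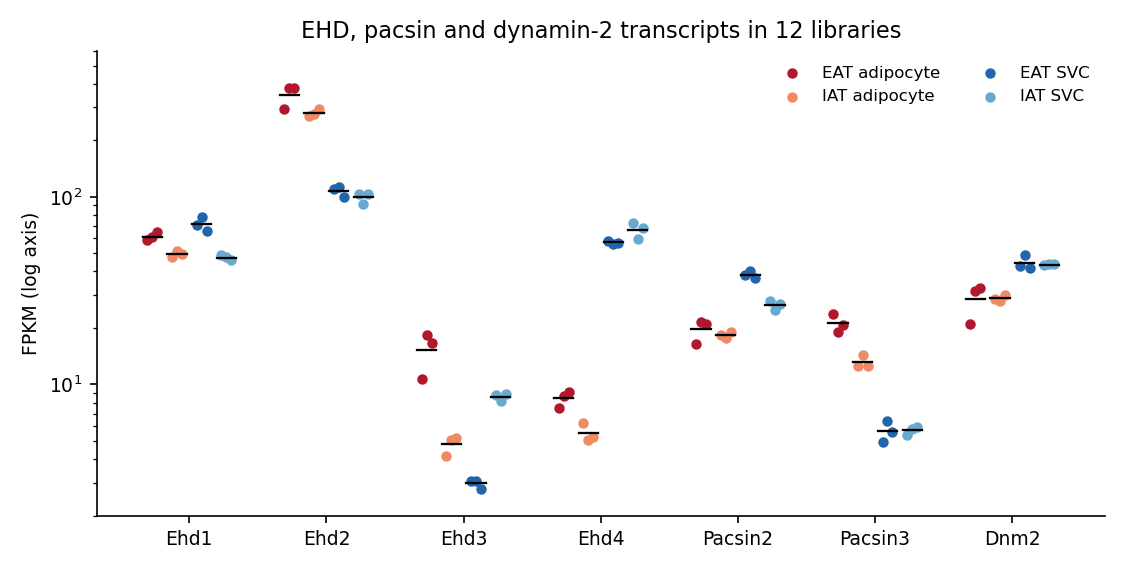
FPKM of 4 EHD genes, 2 pacsins and Dnm2 on a log axis, with a point for each of the 12 libraries, a colour for each group and a black bar at the group mean. Ehd2 and Pacsin3 lay higher in adipocytes than in SVCs, Ehd4, Pacsin2 and Dnm2 lay lower, and Ehd3 was high in EAT adipocytes (mean 15.27 FPKM) and in IAT SVCs (mean 8.619 FPKM).

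The muscle cavin, Murc (cavin-4, now Cavin4, chr4:48663514-48673492), was named after its values were seen, since its means were under the 5 FPKM set for naming. It stood at 1.1, 1.04 and 1.63 FPKM in EAT adipocytes and at 1.01, 0.946 and 0.796 in IAT adipocytes, but at 0.0287, 0.0135 and 0 in EAT SVCs and at 0.0557, 0.0454 and 0.175 in IAT SVCs. The difference of log2(FPKM + 1) was 1.15 ± 0.0904 in EAT (limma, adjusted p = 6.98e-08) and 0.81 ± 0.0904 in IAT (adjusted p = 2.19e-06). Its fractions were thus ordered as for Cav1 and unlike Cav3, the muscle caveolin, which was at 0 in all 6 adipocyte libraries. The 12 skeletal muscle markers, summed, also stood higher in adipocytes in EAT (32.6 to 40.4 against 16.3 to 18.6 FPKM). That adipocyte sum was mostly Acta1, the skeletal muscle actin, which averaged 33.09 ± 3.49 against 0.6227 ± 0.0734 FPKM. Of 9 tested markers 3 were higher and 4 lower, beside 31.1% and 52.7% of all features. Among those lower were Tnnt3 (0.2105 ± 0.0718 against 7.055 ± 0.0846 FPKM) and Tnni2 (0.2175 ± 0.169 against 1.871 ± 0.323 FPKM). Ckm and Myh4 were at 0 in EAT adipocytes. In IAT the sum was lower in adipocytes (18.9 to 40.7 against 97.8 to 118 FPKM), with 8 of 9 markers lower, beside 53.9% of all features. The part of muscle RNA in the Murc values was not tested.

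Flotillins scaffold membrane rafts that are separate from caveolae. Flot1 and Flot2 were listed with the related genes Stom, Stoml2, Erlin1 and Erlin2, whose place in such rafts was not examined. Of these 6 genes, 1 was called higher and 2 lower in IAT than in EAT adipocytes, beside 37.6% of all features in either direction (medians 0.09 and -0.10), and 0 higher and 2 lower in SVCs, beside 40.2% (medians -0.19 and -0.06). Against SVCs 3 were higher and 2 lower in adipocytes of EAT, beside 83.8% of all features (medians 0.17 and -0.31), and 4 higher and 2 lower in IAT, beside 83.7% (medians 0.36 and -0.34). Under median-of-ratios scaling the adipocyte depot counts were 3 higher and 2 lower, beside 2124 and 2197 of all 13175 features. Under quantile scaling they were 2 and 0, beside 2015 and 2137. Flot1 averaged 64.91 ± 3.77 FPKM in EAT adipocytes and 65.12 ± 0.876 in IAT adipocytes, a log2 difference of 0.01 ± 0.0842 (limma, adjusted p = 0.968), while it was higher in adipocytes than in SVCs by 0.86 in EAT (adjusted p = 5.93e-07) and 0.98 in IAT (adjusted p = 1.64e-07). Stom, which encodes stomatin, was higher in IAT than in EAT adipocytes (31.13 ± 0.878 against 23.39 ± 1.78 FPKM, 0.40, adjusted p = 0.00134).

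A last list held 16 genes for proteins known from adipocyte or endothelial caveolae. In adipocytes 4 were higher and 3 lower in IAT, beside 10.3% and 27.3% of all features (medians 0.18 and -0.10), and in SVCs 5 were higher and 4 lower, beside 14.0% and 26.2% (medians 0.08 and -0.06). Adipocytes stood above SVCs for 9 of 16 genes and below for 7 in EAT, beside 31.1% and 52.7% (medians 0.75 and -0.31), and above for 10 and below for 5 in IAT, beside 29.8% and 53.9% (medians 0.61 and -0.34). Among those above in both depots were Slc2a4, Lipe, Plin1 and Fabp4, which are also on the adipocyte marker list. Kdr, below in both, is also on the endothelial marker list. These counts and medians between fractions are therefore partly set by the choice of genes. Under median-of-ratios scaling the adipocyte depot counts were 7 higher and 0 lower, beside 2124 higher and 2197 lower of all 13175 features. Cd36 and Insr, the insulin receptor, had lower means in IAT adipocytes, as the caveolins did: Cd36 averaged 956.4 ± 4.07 FPKM in IAT and 1275 ± 28.8 in EAT adipocytes (-0.41 ± 0.113, limma, adjusted p = 0.0127), and Insr 11.32 ± 1.12 against 15.34 ± 2.21 FPKM (-0.40 ± 0.112, adjusted p = 0.0135). Both calls ended under median-of-ratios scaling (-0.27, adjusted p = 0.0966, and -0.27, adjusted p = 0.0521), and that of Insr also under quantile normalization and without EAT adipocyte replicate 2 or IAT adipocyte replicate 1. Slc2a4, the insulin-responsive glucose transporter, went the other way at 87.56 ± 7.21 against 70.28 ± 2.51 FPKM (0.31 ± 0.0845, adjusted p = 0.0123; not called after rescaling to TPM or without IAT adipocyte replicate 2), as did Nos3, the endothelial nitric oxide synthase (20.27 ± 0.909 against 10.52 ± 1.85 FPKM, 0.90 ± 0.119, adjusted p = 9.2e-05). Plvap, which forms the diaphragm of endothelial caveolae, was higher in IAT in both fractions, at 12.0 ± 2.93 against 3.672 ± 0.71 FPKM in adipocytes (1.46 ± 0.17, adjusted p = 3.01e-05) and 297.8 ± 56.7 against 61.49 ± 4.12 FPKM in SVCs (2.24 ± 0.17, adjusted p = 3.63e-07).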

How the data were processed

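RNA sequencing tables of 12 mouse libraries were used, 1 per library. Per the submitters' processing notes, TopHat, Cufflinks and the build GRCm38 (mm10) were used. Versions, settings, strand handling and annotation are not given in the sources used here. The values the authors deposited are FPKM with confidence bounds, normalized for length and depth. The tables hold no read counts. Of 24890 features in each table, 9 with a failed or skipped estimate in a library were left out.

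Tests used log2(FPKM + 1). A feature was kept if 3 or more of the 12 libraries reached 1 FPKM, which left 13175, and limma 3.58.1 in R 4.3.3 (lmFit, eBayes with trend=TRUE) fitted the 4 group means. Adjusted p-values are Benjamini-Hochberg values within a contrast over all 13175 features, two-sided, called under 0.05. The fitting procedure was tested on simulated data. A library had 10718 to 12418 features at 1 FPKM or more, and the tables give no total count as depth. Fragments behind low values were estimated from the confidence bounds. Plots were drawn with matplotlib 3.10.9 in Python 3.11.15, with pandas 2.3.3 and NumPy 2.4.6.

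The members, related genes and marker lists were chosen with earlier results of these data known. Named genes were all members, related genes with at least 5 FPKM in the mean of a group, markers beside a result they moved with, and the 3 features with the highest Pearson r per member, of which 1 is not reported here. Alternatives were other pseudocounts, filters and scalings, eBayes without trend, the compared groups alone, a replicate block and leaving out each of the 12 libraries. Removal of a gene length trend was added after the data were seen.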

Additional observations from a re-analysis of the deposited data

Results flagged for a closer look

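The depot difference of 3 members differed between adipocytes and SVCs, by limma's interaction term fitted across all 13175 features. The interaction was -0.6233 for Cav1, -0.6692 for Cav2 and -0.7478 for Prkcdbp on the log2 scale, with adjusted p of 0.00181, 0.00322 and 0.0152. In adipocytes each was lower in IAT than in EAT, with log2 differences of -0.63, -0.42 and -0.67. In all 3 IAT libraries the value lay below all 3 EAT libraries, as for 34.8% of all features. In SVCs the differences were -0.01, 0.25 and 0.08. Of 10 adipocyte markers 6 were called lower and 1 higher for this term, with a median of -0.64, and their part in the result was not tested. Over all features 32.5% were called for this term, 17.8% lower and 14.7% higher.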

How the results depend on the processing

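The members were refitted under 23 alternatives (22 for the interaction), their ratios under 1 pseudocount, and Cav3 under 3 added fits. Of the 817 values and counts this gave, 791 kept their side of the threshold, or for counts and ratios stayed within 1.5 times or 1 SD, 26 did not, and no called difference changed sign. Median-of-ratios scaling left 3 members called lower in IAT adipocytes in place of 5, with Cav2 at -0.28 (adjusted p = 0.0509) and Sdpr at -0.15 (adjusted p = 0.198), and called Cav2 higher in IAT SVCs at 0.35, 1 member in place of 0. Quantile normalization (0.37) and removal of the gene length trend (0.29) also called Cav2, 1 member each. Rescaling to TPM called Ptrf lower in IAT SVCs at -0.27, 1 member in place of 0. The Ptrf interaction passed the threshold at -0.69 with quantile normalization, at -0.26 with TPM and at -0.33 with eBayes without trend. With no filter on low values Cav3 was the 1 member called lower in IAT adipocytes than in IAT SVCs (-0.20, adjusted p = 0.0251), on the few fragments given above. In fits added after the data were seen that value moved from -0.27 to -0.10, the latter without IAT SVC replicate 1 (adjusted p = 0.0155), the library with 9 of the fragments, and Cav3 stayed the 1 member called. The cause of these changes was not tested.

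Leaving out single libraries moved the Sdpr depot difference in adipocytes between -0.33 and -0.24, not called without EAT adipocyte replicate 2 or IAT adipocyte replicate 2, which left 4 members called lower. It moved the Cav2 depot difference in SVCs between 0.13 and 0.33, with 0 to 1 members called higher (1 without EAT SVC replicate 3 or EAT adipocyte replicate 1), and the Ptrf interaction between -0.39 and -0.25, called without EAT adipocyte replicate 2. The log2 ratio of Sdpr to Ptrf in IAT adipocytes was -1.351, and -1.345 with a pseudocount of 1.

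Most same-numbered libraries did not deviate together: 5 of 18 pairs correlated above 0.1 (range -0.312 to 0.373), and 4 of 12 libraries correlated best with a library of their own number. EAT and IAT adipocyte libraries correlated at 0.373 for replicate 1, -0.0786 for replicate 2 and 0.3485 for replicate 3. With 3 libraries per group these values cannot tell whether same-numbered libraries share a mouse or a batch. A replicate block left every member's call as it was, such as Cav1 in adipocytes at -0.63 (limma, adjusted p = 0.000353) with the block. In this balanced design a block cannot move the log2 differences, only their errors.

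Bounds of 66.7% to 200% of the Cav3 values limit what depth can show for that gene, and 3 libraries per group limit the rest.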
